A study of Rattus norvegicus with 16 samples.

Results

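The 7 genes described here encode proteins that build, cross-link or cut the elastic fibre: Eln, Fbn1, Fbln5, Bmp1, Lox, Loxl1 and Cela1. They were taken by their symbols in the platform annotation, out of 10411 named genes on the array. All 10 probe sets that carry these symbols were kept. Eln, Fbln5, Loxl1 and Cela1 had 1 probe set each, and Fbn1, Bmp1 and Lox had 2 each. Lung total RNA was hybridised to 16 arrays, in 4 groups of 4 biological replicates. The groups were spontaneously hypertensive (SH) rats exposed to sulfur dioxide (SO2), SH rats exposed to air, Sprague Dawley (SD) rats exposed to SO2, and SD rats exposed to air. The SH rat is an inbred strain with high blood pressure, the SD rat is an outbred stock, and SO2 is an irritant gas. Going by its title, the study used SH rats to model SO2-induced disease of the airways. The sources used here do not give dose, length of exposure, time of sampling, sex or age.

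Elastic fibres give the lung its recoil. Tropoelastin, secreted by fibroblasts, smooth muscle and other cells, is laid down on a scaffold of fibrillin microfibrils with the help of fibulin-5, and is joined into an insoluble polymer by copper enzymes of the lysyl oxidase family. Lysyl oxidase is made as a proenzyme that the metalloprotease encoded by Bmp1 cleaves, and elastases can cut the finished fibre. Most lung elastin is laid down during growth and turns over slowly in the adult.

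Signals are linear intensities, and group values are means ± standard deviation. Differences are on the scale of log2(intensity + 16) with their standard error (SE), and an adjusted p under 0.05 in limma counts as a call. The offset of 16 understates differences of dim probe sets. The arrays had median signals of 250.2 to 281.4 and correlated at 0.939 to 0.968 within groups and 0.933 to 0.971 between groups. Of 8 lung identity genes, 7 had a probe set, and their mean signals ran from 4028 for Aqp5 to 28290 for Sftpc. The array labelled SD air replicate 2 stood apart. On 78 probe sets, none of them of the 7 genes, that separated SH from SD among the SO2 arrays alone, it lay nearer to the SH air mean at 68, against 7 to 17 for the other 3 SD air arrays. Each SH air array lay nearer to the SD air mean at 8 to 16 of them. Calls and differences of the 7 genes that rest on SD air arrays are therefore given with and without this array, and group means are over all 4 arrays unless another n is given. The array was picked after seeing the data because it read like SH. Leaving it out therefore tends to widen strain differences in air and in the average over exposures. The number of arrays limits the precision throughout.

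Averaged over both exposures and with all 16 arrays, SH lungs had more Cela1 signal and less Loxl1 signal than SD lungs, and the Loxl1 call held in 10 of 24 other settings. Cela1 rose by 1.13 on the log2 scale (SE 0.188, adjusted p = 0.00279), a 2.19-fold difference. Loxl1 fell by 0.56 (SE 0.139, adjusted p = 0.0456), which is 0.677 of the SD level, with an adjusted p of 0.0306 to 0.106 over the other settings. These were 2 of the 10 probe sets, where the same test called 172 of 11106 probe sets, or 1.55%. Without SD air replicate 2 the called probe sets were 4 of 10, since Eln (-0.80, SE 0.135, adjusted p = 0.00183) and one Lox probe set (-0.59, SE 0.133, adjusted p = 0.0179) were then also lower, with Cela1 at 1.27 and Loxl1 at -0.58, and the same test called 2.54% of all probe sets. The median difference over the 10 probe sets was -0.22, beside 0.0013 over all probe sets tested. The genes, and the gene lists further on, were chosen with earlier results of these data known. Shares and medians set beside those of all probe sets, here and below, are therefore descriptions. They cannot test whether elastic fibre genes differed more often than other genes.

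**Figure D1:**
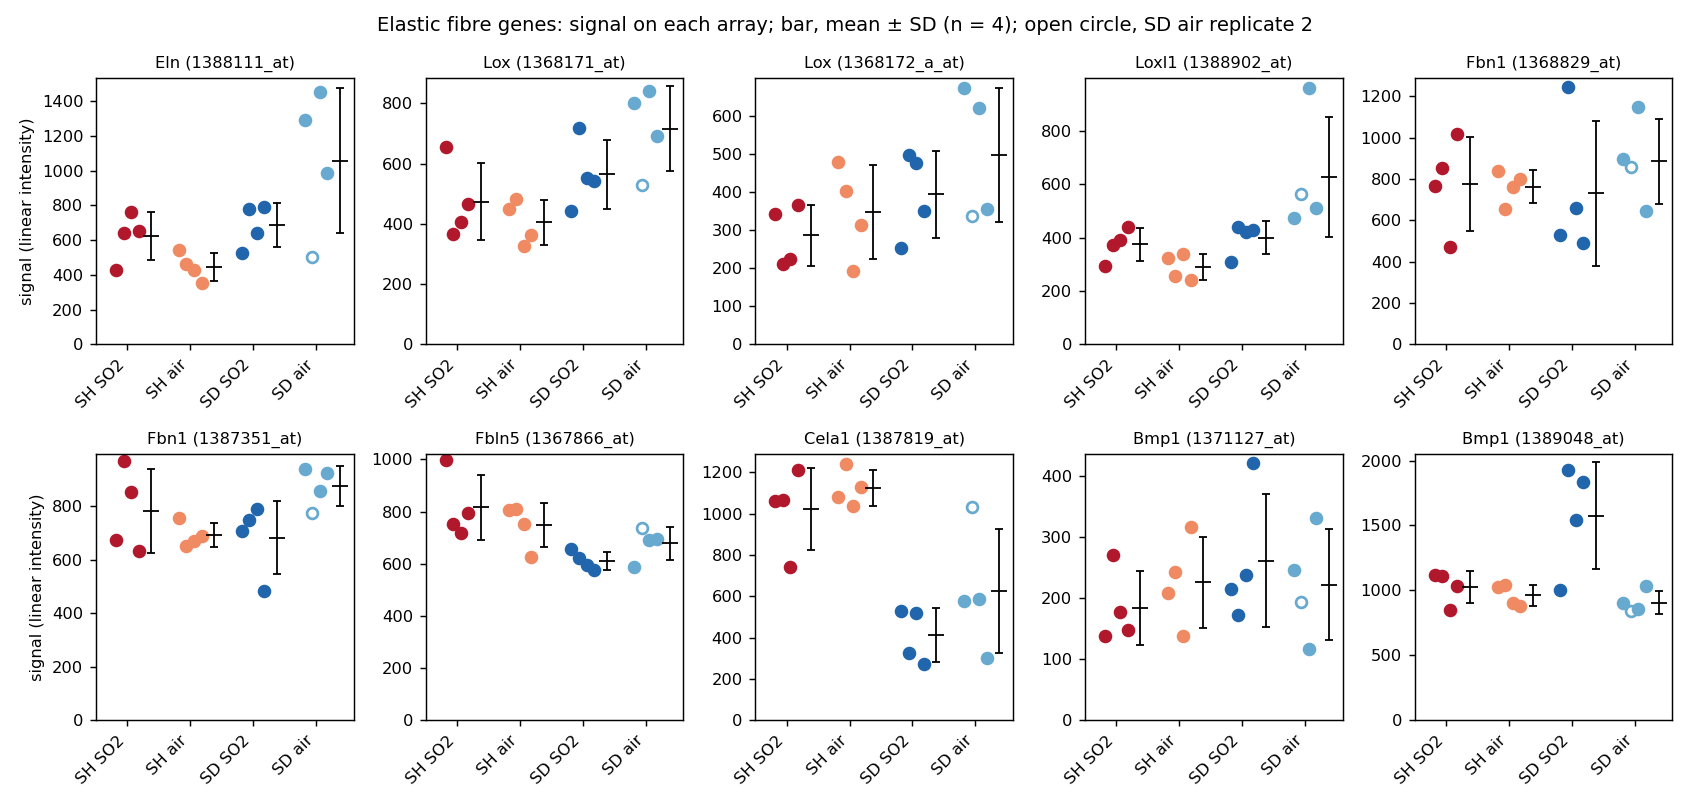
Signal (linear intensity) of the 10 probe sets on each of the 16 arrays, by group, with the group mean and standard deviation (n = 4) beside the points and SD air replicate 2 as an open circle. Cela1 lay between 742.4 and 1239.6 on SH arrays, against 271.3 to 586.5 on SD arrays other than SD air replicate 2, which read 1031.0.

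Eln encodes tropoelastin, the precursor of the elastic core. Its signals were 430.9, 641.7, 761.1 and 653.0 on SH SO2 arrays and 541.4, 460.6, 427.7 and 351.9 on SH air arrays. They were 526.6, 781.5, 642.9 and 793.1 on SD SO2 arrays and 1290.0, 501.6, 1449.4 and 986.4 on SD air arrays. The SD air arrays read higher than all others except for replicate 2, whose 501.6 fell within the range of SH air. The group means were 621.7 ± 138 in SH SO2, 445.4 ± 78.5 in SH air, 686.0 ± 126 in SD SO2 and 1057 ± 417 in SD air. From lowest to highest the order was SH air, SH SO2, SD SO2 and SD air, and no neighbours in it were separated on all arrays. Averaged over exposures, Eln differed by -0.64 (SE 0.178, adjusted p = 0.0852) and was not called with all 16 arrays. In air the difference was -1.13 (SE 0.251, adjusted p = 0.139). Without SD air replicate 2 it was -1.45 (SE 0.199, adjusted p = 0.000883), with the 2 groups separate. In SO2 the difference was -0.15, with a 95% interval from -0.67 to 0.38.

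Fbn1 encodes fibrillin-1, the main protein of the microfibril scaffold, and was read by 2 probe sets. Group means of the first, 1368829_at, were 776.7 ± 228 in SH SO2, 764.0 ± 78.5 in SH air, 730.4 ± 349.8 in SD SO2 and 887.1 ± 206 in SD air. All of its groups overlapped, and SD SO2 spread most, from 489.7 to 1243.6. The second, 1387351_at, averaged 783.0 ± 158 in SH SO2, 692.1 ± 44.5 in SH air, 682.4 ± 136 in SD SO2 and 874.7 ± 75.3 in SD air. Its 4 SH air arrays, from 653.3 to 755.5, all lay below the 4 SD air arrays, from 776.2 to 941.1. The difference in air was -0.33 for this probe set (SE 0.154, adjusted p = 0.759) and -0.19 for the first (SE 0.251, adjusted p = 0.952), and -0.38 and -0.20 without SD air replicate 2. For both probe sets the order of means from lowest to highest was SD SO2, SH air, SH SO2 and SD air, and neighbours overlapped. Neither was called in any comparison.

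Fbln5 encodes fibulin-5, which links tropoelastin to the microfibrils and to cells. Its signals were 998.9, 752.3, 717.3 and 794.3 on SH SO2 arrays, against 655.6, 620.2, 593.6 and 576.1 on SD SO2 arrays. The SO2 groups did not overlap, and the difference was 0.40 (SE 0.126, adjusted p = 0.186). In air the values were 804.4, 811.0, 753.0 and 625.2 in SH rats, against 588.2, 737.5, 690.7 and 694.5 in SD rats, which overlapped, with a difference of 0.14 (SE 0.126), or 0.18 without SD air replicate 2. Averaged over exposures Fbln5 differed by 0.27 (SE 0.0891, adjusted p = 0.179), or 0.29 without that array. The order of group means from lowest to highest was SD SO2, SD air, SH air and SH SO2, with overlap between each pair of neighbours.

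Lox encodes lysyl oxidase, the enzyme that starts the cross-links of elastin and collagen. Its brighter probe set, 1368171_at, read 654.0, 367.8, 404.6 and 466.3 on SH SO2 arrays and 447.7, 483.3, 325.1 and 362.4 on SH air arrays. On SD arrays it read 441.6, 716.9, 553.6 and 543.2 in SO2 and 801.5, 527.7, 841.2 and 691.2 in air. All 4 SH air arrays were below all 4 SD air arrays, of which replicate 2 was the lowest, and the 2 SO2 groups overlapped. Means were 473.2 ± 127 in SH SO2, 404.6 ± 73.4 in SH air, 563.8 ± 114 in SD SO2 and 715.4 ± 140.3 in SD air, the same order of groups as for Eln. The averaged difference of -0.53 (SE 0.136, adjusted p = 0.0564) was not called with 16 arrays, and was called in 5 of 24 other settings, among them those without SH SO2 replicate 1, SD SO2 replicate 1 or SD air replicate 2. In air it was -0.79 (SE 0.192, adjusted p = 0.176), and -0.93 (SE 0.195, adjusted p = 0.0281) without SD air replicate 2. In SO2 it was -0.26 (95% interval -0.66 to 0.14). The dimmer probe set, 1368172_a_at, averaged 286.4 ± 79.7 in SH SO2, 347.3 ± 124 in SH air, 394.8 ± 114 in SD SO2 and 497.6 ± 176 in SD air. Its differences were -0.51 in air and -0.43 in SO2 (SE 0.283 for each), or -0.66 in air without SD air replicate 2, all groups overlapped, and it was called in no comparison.

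Loxl1 encodes a lysyl oxidase that acts mainly on elastin and is needed for its renewal in adult mice. Signals were 293.1, 372.5, 392.0 and 442.2 on SH SO2 arrays and 322.4, 256.4, 338.4 and 240.4 on SH air arrays. They were 309.2, 442.2, 420.4 and 429.4 on SD SO2 arrays and 475.8, 565.0, 961.3 and 511.5 on SD air arrays. SD air stood above the other 3 groups on every array, SD air replicate 2 included, and the highest value was that of SD air replicate 3. Group means were 374.9 ± 62.0 in SH SO2, 289.4 ± 48.2 in SH air, 400.3 ± 61.4 in SD SO2 and 628.4 ± 225 in SD air. In order from the lowest mean they were SH air, SH SO2, SD SO2 and SD air, and only the last step separated neighbours on all arrays. In air the difference was -1.03 (SE 0.197, adjusted p = 0.0802), and -1.07 (SE 0.218, adjusted p = 0.0234) without SD air replicate 2. In SO2 it was -0.09 (95% interval -0.50 to 0.32). The call for the average over exposures was lost with no filter on dim probe sets, with quantile normalization and with RNA quality covariates. It was also lost without any one of SH SO2 replicates 1 to 3, SH air replicates 1 to 4, SD SO2 replicates 2 to 4 or SD air replicate 3, and without the last the difference was -0.45 (adjusted p = 0.0709).

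Bmp1 encodes a metalloprotease that cleaves the propeptides of lysyl oxidase and of fibrillar collagens. Its brighter probe set, 1389048_at, read 1116.1, 1107.1, 851.2 and 1033.0 on SH SO2 arrays and 1027.0, 1038.1, 903.7 and 876.5 on SH air arrays. On SD arrays it read 1003.3, 1924.7, 1544.7 and 1830.7 in SO2 and 900.7, 838.4, 852.7 and 1030.1 in air. SD SO2 replicates 2, 3 and 4 were above every other array of the study, and SD SO2 replicate 1 lay among the other groups. Means were 1027 ± 123 in SH SO2, 961.3 ± 83.1 in SH air, 1576 ± 414.5 in SD SO2 and 905.5 ± 87.3 in SD air, and the order from lowest to highest was SD air, SH air, SH SO2 and SD SO2, with overlap between neighbours. In SO2 the strains differed by -0.58 (SE 0.162, adjusted p = 0.129), and by -0.78 (adjusted p = 0.00548) without SD SO2 replicate 1. In air the difference was 0.086 (95% interval -0.25 to 0.42), or 0.051 without SD air replicate 2. The dimmer probe set, 1371127_at, had means of 182.9 ± 60.6 in SH SO2, 225.9 ± 74.2 in SH air, 261.1 ± 109 in SD SO2 and 221.7 ± 90.7 in SD air. It differed by -0.45 in SO2 (SE 0.31, adjusted p = 0.672) and all of its groups overlapped.

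Cela1 encodes a chymotrypsin-like elastase, first known from the pancreas and also made in lung, where the mouse enzyme takes part in remodelling of elastin. Its signals were 1063.4, 1065.9, 742.4 and 1211.9 on SH SO2 arrays and 1082.8, 1239.6, 1036.9 and 1128.6 on SH air arrays. They were 526.5, 326.1, 520.8 and 271.3 on SD SO2 arrays and 576.4, 1031.0, 586.5 and 303.5 on SD air arrays. Every SH array read higher than every SD array apart from SD air replicate 2, whose value was just under the lowest SH air array and above SH SO2 replicate 3. Means were 1021 ± 198 in SH SO2, 1122 ± 86.9 in SH air, 411.2 ± 132 in SD SO2 and 624.4 ± 301 in SD air. From lowest to highest the order was SD SO2, SD air, SH SO2 and SH air, and neighbours overlapped with all 16 arrays. Without SD air replicate 2 its SD air mean was 488.8 ± 161 (n = 3), and the step between the strains was the one that separated neighbours on all arrays.

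The Cela1 difference was called averaged over exposures in 24 of 24 other settings, with adjusted p from 0.000108 to 0.00837. In SO2 it was 1.31 (SE 0.266, adjusted p = 0.0173), a 2.48-fold difference, and it was called in 19 of 24 other settings. Leaving out SH SO2 replicate 1, 2 or 4 or SD SO2 replicate 2 or 4 gave 1.14 to 1.29 with adjusted p of 0.051 to 0.0837. In air it was 0.95 (SE 0.266, adjusted p = 0.278) with all arrays and 1.23 (SE 0.24, adjusted p = 0.0153) without SD air replicate 2. Genes of pancreatic acinar cells were checked beside it, since a trace of that tissue would carry Cela1. All 7 had a probe set, 5 were too dim to be tested, and mean signals ran from 12.8 for Cel and 13.4 for Cpa1 to 131 for Cpb1. Their summed signal was 267.1 to 615.9 on SH SO2 arrays and 292.5 to 487.4 on SH air arrays. It was 285.5 to 525.8 on SD SO2 arrays and 301.2 to 529.6 on SD air arrays, and all groups overlapped. The part of such tissue in the Cela1 difference was not tested.

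The promoters of the 2 genes called between the strains are shown as the 250 bases before the start of the gene in RefSeq (rat assembly GRCr8, both on the minus strand). They come from the reference strain, so they say nothing of SH or SD alleles. The 3 motifs searched for, on both strands, were TATAAA, the GC box GGGCGG and the AP-1-like TGANTCA. Capitals mark a match.
Cela1, chr7:133665062-133665311: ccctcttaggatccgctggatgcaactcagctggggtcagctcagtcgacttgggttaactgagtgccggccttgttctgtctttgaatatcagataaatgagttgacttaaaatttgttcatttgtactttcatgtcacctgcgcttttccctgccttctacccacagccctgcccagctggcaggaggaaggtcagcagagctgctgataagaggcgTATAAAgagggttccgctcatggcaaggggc
Loxl1, chr8:67612225-67612474: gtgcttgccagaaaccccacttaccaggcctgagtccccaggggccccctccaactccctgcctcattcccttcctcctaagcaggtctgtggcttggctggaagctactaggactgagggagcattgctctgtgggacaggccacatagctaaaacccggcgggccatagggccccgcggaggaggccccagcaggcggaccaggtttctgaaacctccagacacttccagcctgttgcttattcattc
Cela1 had 1 match, to TATAAA, whose first base lay 31 bases before the start, and a match to TATAAA was found in 12.9% of 33469 promoter windows of this length. Loxl1 had no match to any of the 3 motifs, of which GGGCGG was found in 30.5% and TGANTCA in 6.3% of the windows. A match is a run of letters and not a measured binding site.

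**Figure D2:**
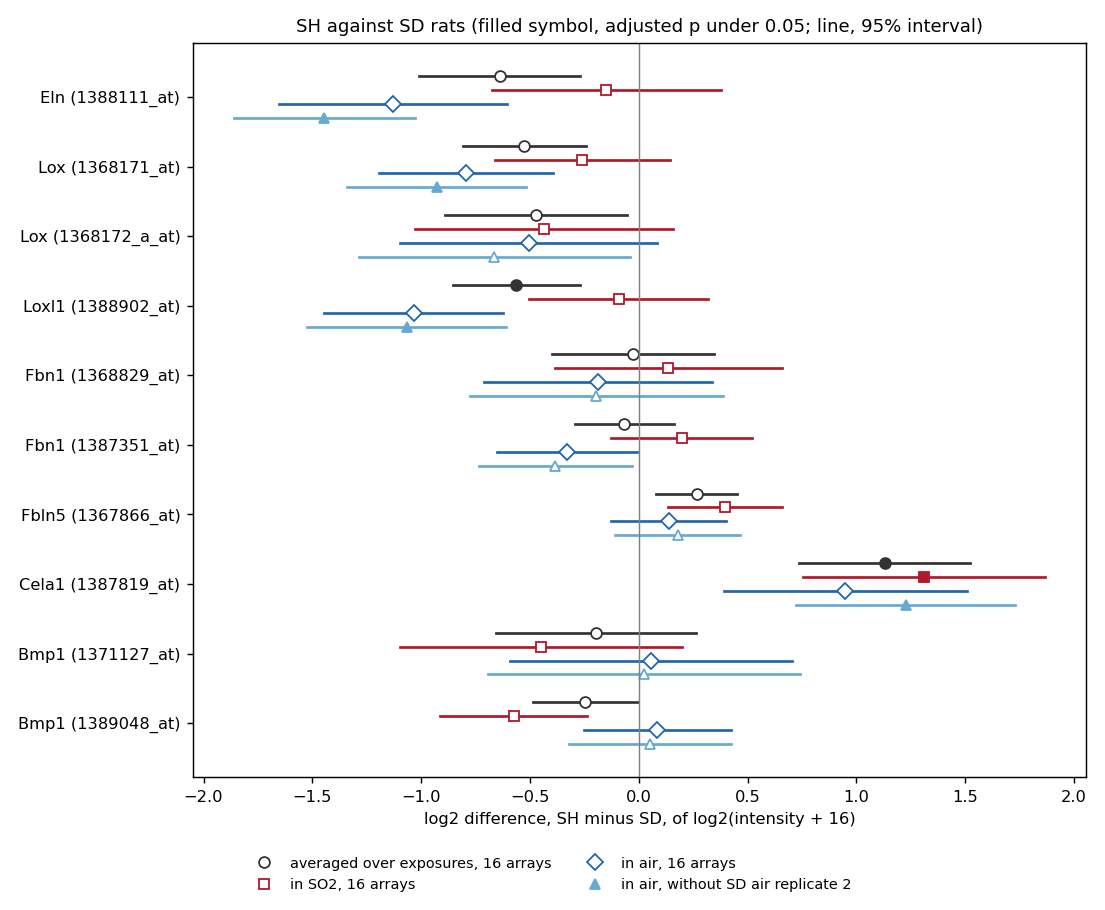
Difference between SH and SD rats for each probe set, on the log2(intensity + 16) scale with its 95% interval, averaged over exposures, in SO2, in air, and in air without SD air replicate 2, with filled symbols where the adjusted p was under 0.05. Cela1 was higher in SH rats by 0.95 to 1.31, and Eln and Loxl1 were lower in air by 1.03 to 1.45 and closer to 0 in SO2.

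Taken exposure by exposure with 16 arrays, the strain difference was larger in size in air for Eln, Lox, Loxl1 and Fbn1. It was larger in size in SO2 for Cela1, Fbln5 and Bmp1. Fbln5 gave 0.14 in air and 0.40 in SO2, and Bmp1 (1389048_at) gave 0.086 and -0.58. In air without SD air replicate 2 these 2 gave 0.18 and 0.051. The dimmer Lox probe set differed little between exposures, with -0.51 in air and -0.43 in SO2. Without SD air replicate 2 so did Cela1, with 1.23 in air and 1.31 in SO2. In air with 16 arrays, limma called 0 of the 10 probe sets and 0 of 11106 in all, or 0%, while 5 of the 10 had an unadjusted p under 0.05, beside 6.42% of all probe sets. The 4 SH air and 4 SD air arrays did not overlap at 4 of the 10 probe sets, of which Lox, Loxl1 and Fbn1 (1387351_at) were lower and Cela1 higher in SH, beside 4.03% of all probe sets. Without SD air replicate 2, 4 of the 10 were called, Eln, Lox and Loxl1 as lower and Cela1 as higher in SH, and the share of all probe sets called was 0.81%. The groups then did not overlap at 5 of the 10, those 4 and Fbn1 (1387351_at), beside 11.4% of all probe sets. Leaving out an array picked for reading like SH tends to widen strain differences in air, so these counts are not separate from that choice. Nor are the shares with or without that array separate from the choice of genes, made with earlier results of these data known. In the other 23 settings none of the 10 was called in air. In SO2 limma called 1 of the 10, Cela1, beside 0.819% of all probe sets. Cela1 and Fbln5 were the 2 probe sets whose SO2 groups did not overlap, beside 5.58% of all probe sets. The comparisons in air and in SO2 use different arrays, and whether the strain difference itself changed with exposure is the interaction given further on.

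Markers of fibroblasts and smooth muscle, which make elastin, and of heart and skeletal muscle were read on the same arrays. Lists for mesothelium, cartilage, endothelium and macrophages, with 1 or 2 tested genes each, were read too and gave no call. At most 1 gene of each of these lists had an unadjusted p under 0.05 in any comparison, beside 4.65% to 11.7% of all probe sets. All 6 fibroblast genes (Col1a1, Col1a2, Col3a1, Pdgfra, Lum and Dpt) were tested and limma called 0 in the 7 comparisons. Between SH and SD rats in air, 2 of these 6 had an unadjusted p under 0.05, beside 6.42% of all probe sets. Both were lower in SH, Col1a1 at -0.50 (adjusted p = 0.682) and Col3a1 at -0.48 (adjusted p = 0.521). In SO2 1 did, Lum, higher at 0.69, beside 10.2% of all. Averaged over exposures 2 did, Col3a1 at -0.31 and Lum at 0.47, beside 11.7% of all. The summed signal of the 6 was 11463 to 15556 on SH SO2 arrays and 12358 to 15064 on SH air arrays. It was 12958 to 17401 on SD SO2 arrays and 13879 to 20667 on SD air arrays. SD air replicate 3, which had the highest Eln, Lox (1368171_at) and Loxl1 signals, also had the highest fibroblast sum. Replicate 2, which had the lowest Eln and Lox signals of SD air, had the lowest sum of that group. Its Loxl1 signal went the other way, at 565.0 against 475.8 and 511.5 on SD air replicates 1 and 4. Of 7 smooth muscle genes 6 were tested and 0 were called. Between SH and SD rats in SO2, 2 of these 6 had an unadjusted p under 0.05, beside 10.2% of all probe sets, and fewer did in each other comparison. Their sums were 6320 to 6644 in SH SO2, 5191 to 6426 in SH air, 5721 to 9002 in SD SO2 and 5594 to 10607 in SD air. SD air replicate 3 was the highest here too, and the rest of SD air read 5594 to 6411. Of 9 heart and skeletal muscle genes 8 had a probe set and 7 were tested. Between SH and SD rats in SO2, where Cela1 was called, 1 of these 7 was called. It was Tcap, a sarcomere protein, 2.11-fold higher in SH (adjusted p = 0.0402). In that comparison 5 of these 7 had an unadjusted p under 0.05, beside 10.2% of all probe sets. Averaged over exposures 4 did, beside 11.7% of all, and in the interaction 3 did, beside 4.65%. For SO2 in SD rats 2 of these 7 did, beside 8.29% of all, and for SO2 averaged over strains 1 did, beside 8.45%. In the remaining comparisons 0 did. Their sums were 2780 to 4315 in SH SO2, 2642 to 4037 in SH air, 1578 to 2924 in SD SO2 and 2436 to 4882 in SD air, again highest in SD air replicate 3. The part of these cells in the differences was not tested, and in bulk lung RNA fewer cells of a type and less RNA per cell cannot be told apart.

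Exposure to SO2 left none of the 10 probe sets past the threshold in either strain. In SD rats the values of Eln, both Lox probe sets, Loxl1, both Fbn1 probe sets, Fbln5 and Cela1 were lower in SO2 than in air and those of Bmp1 higher. Limma called 0 of 10 and 0% of all probe sets in SD rats, and 4 of the 10 had an unadjusted p under 0.05, beside 8.29% of all probe sets. In SH rats it also called 0 of 10 and 0% of all probe sets, and none of the 10 had an unadjusted p under 0.05, beside 4.78% of all. The median of the 10 differences was -0.34 in SD rats and 0.10 in SH rats, beside 0.017 over all probe sets in each strain. As a measure of RNA quality, the ratio of the actin probe sets at the 3' end to those at the 5' end was 1.29 to 3.12 on SH SO2 arrays, 1.49 to 2.36 on SH air arrays, 1.47 to 2.94 on SD SO2 arrays and 1.40 to 1.76 on SD air arrays. With it and the 10th percentile of signal as covariates, 0 of the 10 were called for SO2 in either strain. The strain comparisons and the SO2 comparisons share arrays, so their values for 1 gene are not separate evidence.

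In SD rats, Loxl1 measured 400.3 ± 61.4 in SO2 and 628.4 ± 225 in air, without overlap, as did 3.54% of all probe sets. The difference was -0.59 (SE 0.197, adjusted p = 0.471), -0.62 without SD air replicate 2 and -0.37 without SD air replicate 3, whose signal of 961.3 was the highest. Eln measured 686.0 ± 126 in SO2 and 1057 ± 417 in air, a difference of -0.53 (SE 0.251, adjusted p = 0.602). The Eln difference was -0.34 (SE 0.254, adjusted p = 0.846) without SD air replicate 3 and -0.84 (SE 0.199, adjusted p = 0.267) without SD air replicate 2. Without replicate 2 Eln, Loxl1 and Fbn1 (1387351_at) were 3 of 10 probe sets without overlap, beside 6.83% of all. Bmp1 (1389048_at) measured 1576 ± 414.5 in SO2 and 905.5 ± 87.3 in air, a difference of 0.75 (SE 0.162, adjusted p = 0.248), with SD SO2 replicate 1 inside the range of the air arrays. Leaving out that array gave 0.95 (adjusted p = 0.00872), the single one of 24 other settings in which Bmp1 was called, and leaving out SD air replicate 2 gave 0.72. The dimmer Bmp1 probe set gave 0.23 (95% interval -0.41 to 0.88), or 0.20 without SD air replicate 2. For Lox the differences were -0.33 (SE 0.192) and -0.30 (SE 0.283), for Fbn1 -0.35 (SE 0.251) and -0.37 (SE 0.154), and for Fbln5 -0.14 (SE 0.126). They were -0.47 and -0.46 for Lox, -0.35 and -0.43 for Fbn1, and -0.10 for Fbln5 without SD air replicate 2. Cela1 gave -0.52 (SE 0.266), and -0.24 without that array.

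In SH rats the Eln signal averaged 621.7 ± 138 in SO2 and 445.4 ± 78.5 in air, with 3 of 4 SO2 arrays above all air arrays and replicate 1 among them. The difference was 0.45 (SE 0.251, adjusted p = 0.95, 95% interval -0.071 to 0.98). SD air replicate 2 enters this comparison only through the spread shared by the 4 groups. Without that array the Eln difference was the same, with SE 0.184 and a 95% interval from 0.069 to 0.84. Its unadjusted p in limma was then 0.0235 and its adjusted p 0.951. Loxl1 averaged 374.9 ± 62.0 in SO2 and 289.4 ± 48.2 in air, overlapping, with a difference of 0.36 (SE 0.197, adjusted p = 0.95). The remaining 8 probe sets lay between -0.27 for the dimmer Bmp1 probe set and 0.20 for Lox (1368171_at). Cela1 was -0.15 (95% interval -0.71 to 0.40) and the brighter Bmp1 probe set 0.09 (95% interval -0.25 to 0.43). The intervals of Cela1 and Bmp1 leave room for differences in either direction.

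**Figure D3:**
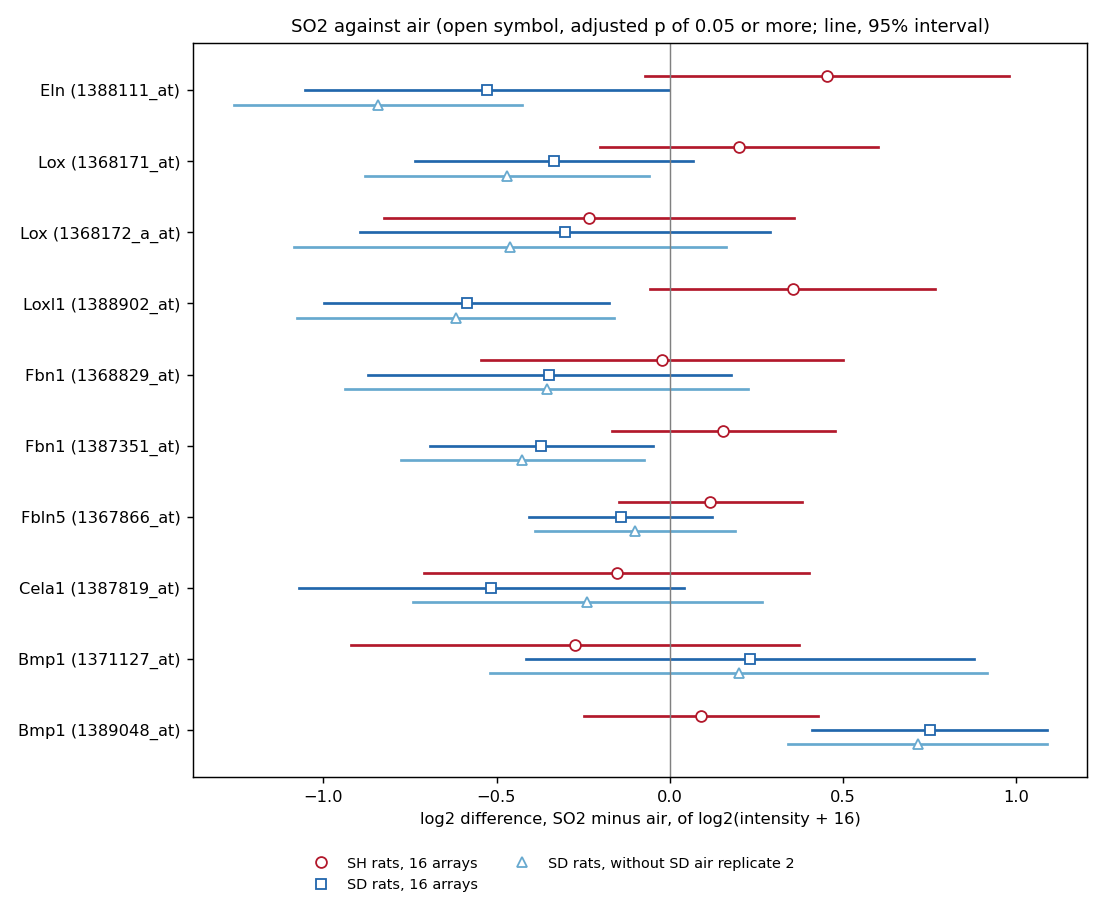
Difference between SO2 and air for each probe set in SH rats, in SD rats, and in SD rats without SD air replicate 2, on the log2(intensity + 16) scale with its 95% interval. All symbols are open because 0 of 10 probe sets had an adjusted p under 0.05, and Eln and Loxl1 lay above 0 in SH rats (0.45 and 0.36) and below 0 in SD rats (-0.53 and -0.59).

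The SO2 difference of SH rats minus that of SD rats was above 0 for 8 of the 10 probe sets and below 0 for both Bmp1 probe sets. Limma called 0 of 10 and 0% of all probe sets in this interaction, and 4 of the 10 had an unadjusted p under 0.05, beside 4.65% of all probe sets. These 4 were Eln at 0.98 (SE 0.355), Loxl1 at 0.94 (SE 0.279), Fbn1 (1387351_at) at 0.53 (SE 0.218) and Bmp1 (1389048_at) at -0.66 (SE 0.229), all with an adjusted p of 0.984. Without SD air replicate 2 Eln gave 1.30 (SE 0.271, adjusted p = 0.607), Loxl1 0.97, Fbn1 (1387351_at) 0.58, Bmp1 (1389048_at) -0.63 and Lox (1368171_at) 0.67, against 0.53 for that Lox probe set with 16 arrays. Cela1 gave 0.36 with 16 arrays and 0.084 without SD air replicate 2. Averaged over strains, SO2 against air gave 0 called of 10 and 0% of all probe sets, with Bmp1 (1389048_at) at 0.42 (SE 0.114, adjusted p = 0.307) the 1 with an unadjusted p under 0.05, beside 8.45% of all probe sets. Eln, with opposite signs in the strains, averaged -0.036 (SE 0.178) and Loxl1 -0.12 (SE 0.139), and without SD air replicate 2 these were -0.19 and -0.13, and Bmp1 (1389048_at) 0.40.

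Among the rats of a group the 7 genes did not move together in a way that passed the test. With the group means removed and the brighter probe set taken for each gene, 21 pairs were compared over the 16 arrays, and 0 passed after Benjamini-Hochberg adjustment, with 1 at an unadjusted p under 0.05. That pair was Lox and Bmp1, with Pearson's r of 0.544 (permutation p = 0.0419, adjusted 0.545) and Spearman's rho of 0.55 (permutation p = 0.0494, adjusted 0.555). Without the 2 arrays farthest from the median of Lox its r was 0.551, and without SD air replicate 2 alone 0.544. Eln and Loxl1 had an r of 0.526 (permutation p = 0.176, rho 0.471, permutation p = 0.112) 0.571 without the 2 arrays farthest from the median of Eln and 0.687 without SD air replicate 2 alone. Eln and Cela1 had -0.555 (permutation p = 0.16, rho -0.512, permutation p = 0.0827), -0.284 without the 2 arrays farthest from the median of Eln and -0.173 without SD air replicate 2 alone. Eln and Lox had 0.383 (permutation p = 0.208, rho 0.356, permutation p = 0.23), 0.586 without those 2 arrays and 0.0689 without SD air replicate 2. The adjusted p of these 3 pairs was 0.545 for r and 0.555 for rho. The coefficients of variation within a group ran for Eln from 17.6% in SH air to 39.5% in SD air, and for Cela1 from 7.7% in SH air to 48.2% in SD air. Without SD air replicate 2 those of SD air were 18.9% for Eln and 32.8% for Cela1.

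For each gene, 8049 other genes were searched for the 3 whose log2 values followed it most closely over the 16 arrays with group means removed, as a description without a test. Eln was followed by Msantd3 (r = 0.881), Aldh1a2, which makes retinoic acid (0.868), and Slc8a1, a sodium-calcium exchanger (0.834). Cela1 was followed by Gpnmb, a glycoprotein of macrophages and other cells (0.889), Alg10 (0.871) and the sterol transporter gene Abcg1 (0.867). Fbn1 had Fhl2 (0.917), Nob1 (0.916) and Cib1 (0.907), and Bmp1 had Ubqln2 (0.875), Strn3 (0.861) and Racgap1 (0.86). Lox had Rbm39 (0.879), Syt8 (0.854) and Kat2b (0.854), Loxl1 had Ifgga2l1 (0.859), Tle5 (0.854) and Tnfrsf1a (0.854), and Fbln5 had Uba3 (0.825), Zfp318 (0.783) and Tmprss2 (0.782). None of the 21 genes named was another of the 7. Of these 21 genes, 9 were still among the 3 closest to their gene without SD air replicate 2, with 0 of 3 for Eln (r of 0.615 to 0.719), 0 of 3 for Cela1 (0.78 to 0.85) and 0 of 3 for Lox (0.841 to 0.895). The points share the arrays and their scaling, so common array effects enter each r.

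Other genes of the elastic fibre and its turnover gave no call. Of 63 listed genes for microfibrils and assembly, cross-linking, tolloid proteases, the elastin receptor, elastin-degrading proteases, inhibitors and regulators, 45 had a probe set and 39 were tested. Limma called 0 of 39 in each of the 7 comparisons, with or without SD air replicate 2, while 0 to 7 had an unadjusted p under 0.05. For SH against SD averaged over exposures 7 did so with 16 arrays, 3 of them higher in SH, beside 11.7% of all probe sets, and the median difference of the 39 was -0.021, beside 0.0013 over all probe sets.

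**Figure D4:**
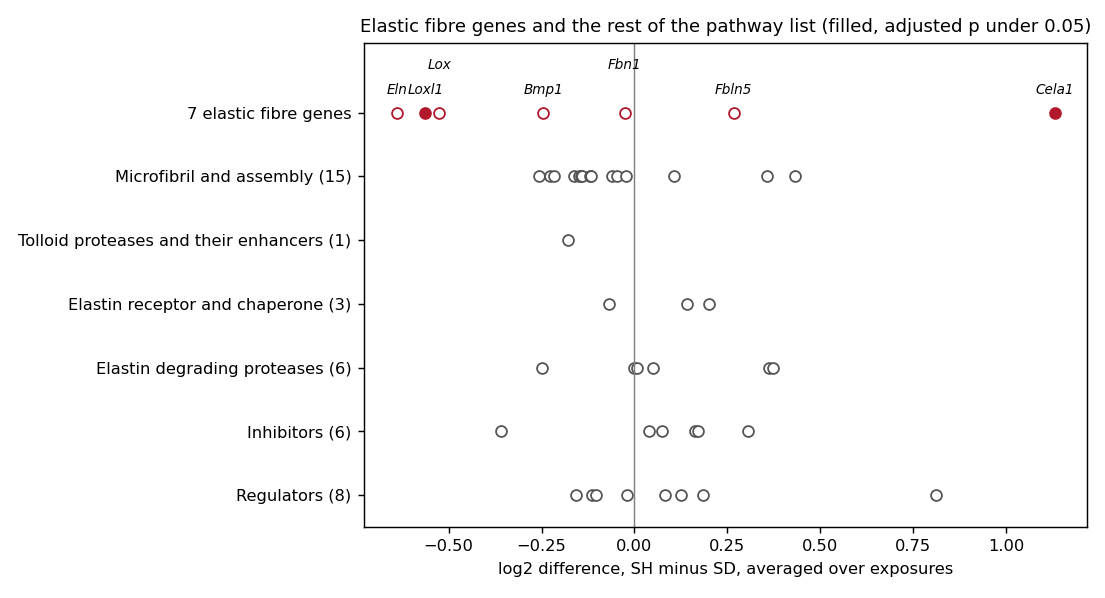
Difference between SH and SD rats averaged over exposures, on the log2(intensity + 16) scale, for the 7 elastic fibre genes (1 probe set each) and the 39 tested genes of the wider list by role, with filled symbols where the adjusted p was under 0.05. Cela1 at 1.13 and Loxl1 at -0.56 are the filled symbols, and 0 of the 39 other genes were called.

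Between the strains the smallest p in the wider list belonged to Ltbp2, a microfibril-associated protein, which averaged 944.5 ± 183 in SH SO2, 870.9 ± 97.3 in SH air, 663.0 ± 95.3 in SD SO2 and 743.6 ± 90.7 in SD air. It differed by 0.36 averaged over exposures (SE 0.103, adjusted p = 0.098) and by 0.49 in SO2 (SE 0.146, adjusted p = 0.146). Timp3, a matrix-bound metalloprotease inhibitor, differed by 0.31 averaged over exposures (SE 0.103, adjusted p = 0.184) and 0.48 in SO2, and Cst3, a cathepsin inhibitor, by -0.36 averaged and -0.44 in air. Tgfbr1, a receptor of transforming growth factor beta, differed by 0.25 in SO2. In air the smallest p was that of Mmp2, a gelatinase that also cuts elastin, with 923.0 ± 126 in SH rats and 1230 ± 219 in SD rats. Its groups did not overlap, beside 4.03% of all probe sets, but it was named for the smallest p among the 39. The difference was -0.40 (SE 0.147, adjusted p = 0.568), and the microfibril gene Mfap5 gave -0.27.

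For SO2 in SD rats the smallest p values of the wider list were those of Timp2 (-0.38, SE 0.13, adjusted p = 0.471), Mmp2 (-0.31, SE 0.147) and Mfap3 (-0.36, SE 0.2). Timp2, an inhibitor that also takes part in activating Mmp2, averaged 3950 ± 577 in SO2 and 5191 ± 1013 in air. For SO2 in SH rats they were Timp3 (0.34, SE 0.145), Timp1 (0.36, SE 0.162) and Pcolce, an enhancer of procollagen cleavage by the Bmp1 protease (-0.43, SE 0.226), all with an adjusted p of 0.95. The interaction was led by Timp2 (0.34), Emilin1, a glycoprotein of the elastin-microfibril interface (1.15, SE 0.638), and Timp3 (0.36), all with an adjusted p of 0.984. When SD air replicate 2 was left out, none of these was among the 3 of smallest p, which were Fbln2 (0.39), Ctss (-0.38) and Mfap2 (-0.89), and Timp2, Emilin1 and Timp3 gave 0.27, 0.97 and 0.26. Averaged over strains SO2 gave -0.39 for Tgfb1 (SE 0.157, adjusted p = 0.514), -0.21 for Timp2 and 0.25 for Timp1, of which only Tgfb1 (-0.37) was still among the 3 of smallest p without SD air replicate 2. For SO2 in SD rats 2 of 3 were, Timp2 (-0.31) and Mmp2 (-0.36), and in the other comparisons all 3. None of these genes passed the threshold.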

How the data were processed

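Each value deposited for a probe set on an array is a linear intensity, made with GCOS, software for Affymetrix arrays, per the submitters' processing notes. The sources used here give neither its version nor its settings. Its scaling was kept, since the trimmed mean of each array, 2% off either end, was 500.099 to 500.111. Of 15923 probe sets, 57 controls were left out. The other 15866 were named through the platform annotation: 12783 had 1 gene symbol, 312 several and 2771 none, and 12748 symbols were matched to RefSeq by Entrez identifier with 0 changes. Detection calls were not used here.

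Values were taken as log2(intensity + 16), and the dimmest 30% of probe sets by mean were left out, which left 11106 and all 10 of the 7 genes. Models were fitted in R 4.3.3 with limma 3.58.1 (lmFit and eBayes with trend), 1 mean for each of 4 groups, 12 residual degrees of freedom, and Benjamini-Hochberg adjustment over 11106 probe sets in each of 7 comparisons. The fit was tested on simulated data. Correlations, permutation tests (100000 resamples within groups, two-sided) and figures used Python 3.11.15 and matplotlib 3.10.9. Promoters come from a RefSeq table of assembly GRCr8, which held 4 of the 7 genes.

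The genes named are all 7 with every probe set (the brighter stands for the gene in summaries), from the wider list those called or else the 3 of smallest p in each comparison, and the 3 genes most like each of the 7. Marker genes were listed by cell type, and any marker gene named with a value was chosen after its values were seen. The 7 genes and the lists were chosen with earlier results of these data known. Alternatives were offsets of 1 and 64, no filter, the lower 50% left out, quantile normalization, median centring, the replicate number as a block, the 10th percentile of signal with the 3' to 5' ratio of actin as covariates, and each of 16 arrays left out. The check of SD air replicate 2 used a fit of the SO2 arrays alone, chosen after seeing the data. The limma p-values set each difference against the spread between the labelled biological replicates, pooled over the 4 groups and moderated over all probe sets tested.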

Additional observations from a re-analysis of the deposited data

Results flagged for a closer look

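The Loxl1 signal of 309.2 on SD SO2 replicate 1 lay far below the other 3 arrays of its group, which read 420.4 to 442.2. It was the 1 outlying array found in 40 groups of 4 values, and chance gives such a gap in about 1 group in 20.

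For Loxl1 the SO2 difference of SH rats minus that of SD rats was 0.94 (SE 0.279). All 4 SH SO2 arrays, at 293.1 to 442.2, lay above the SH air mean of 289.4, and all 4 SD SO2 arrays, at 309.2 to 442.2, lay below the SD air mean of 628.4. The SH groups still overlapped, since SH air arrays reached 338.4. The SD groups did not, with SD air arrays from 475.8 and a median of 538.25. The difference between the strains did not pass the test of the interaction in limma (adjusted p = 0.984). The Loxl1 signal of SD air replicate 3 was 961.3, that array also had the highest fibroblast and smooth muscle sums, and the part of those cells was not tested.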

How the results depend on the processing

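Of 70 results (10 probe sets in 7 comparisons), 24 other settings gave 1673 values. In 16 settings that left out 1 array each, 1054 of 1120 kept direction and side of the threshold, 16 lost and 10 gained a call, and 40 turned direction. In the other 8 settings 545 of 553 were kept, 3 lost and 3 gained a call, and 2 turned. With the lower 50% of probe sets left out the dimmer Bmp1 probe set was not tested. For SH against SD averaged over exposures, 1 probe set rather than 2 was called with no filter (Loxl1 adjusted p = 0.0771) and 1 with quantile normalization (0.0559). The quality covariates gave 2, but lost Loxl1 (-0.54, adjusted p = 0.064) and gained Lox (1368171_at, -0.62, adjusted p = 0.00629). Leaving out 1 array gave 1 to 4, and over all probe sets 117 to 282 rather than 172. For SH against SD in SO2 the signal percentile and actin ratio as covariates gave 2, Cela1 and Bmp1 (-0.66, adjusted p = 0.0334), and 137 over all probe sets rather than 91. Leaving out 1 array gave 0 to 2, and 51 to 116 over all. For SH against SD in air it gave 0 to 4, and 0 to 90 over all, where the offset of 64 gave 5 and the quality covariates 2. For SO2 in SD rats it gave 0 to 1, and 0 to 3 over all. For SO2 averaged over strains, 0 of the 10 and 0 to 11 over all were called. For SO2 in SH rats and the interaction 0 of the 10 were called in all 24 settings (over all probe sets 0 to 1 and 0), and correlated pairs stayed at 0. The causes were not tested.

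Values that turned direction were small: the largest was 0.233 in size with 16 arrays, and their smallest adjusted p was 0.805. With the quality covariates, SO2 in SH rats gave 0.0899 for Cela1 and -0.0704 for Bmp1 (1389048_at). Leaving out 1 array, SO2 in SH rats gave -0.17 to 0.19 for Fbn1 (1368829_at), and SO2 in SD rats -0.021 to 0.44 for Bmp1 (1371127_at). The interaction of Lox (1368172_a_at) ran from -0.17 to 0.24. SH against SD gave -0.20 to 0.27 for Bmp1 (1371127_at) in air, and in SO2 -0.27 to 0.013 for Eln, -0.21 to 0.016 for Loxl1 and -0.017 to 0.42 for Fbn1 (1368829_at). SO2 averaged over strains gave -0.19 to 0.056 for Eln, -0.062 to 0.016 for Fbln5 and -0.15 to 0.086 for Bmp1 (1371127_at), and SH against SD averaged over exposures gave -0.10 to 0.12 for Fbn1 (1368829_at).

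The sample descriptions number replicates within each group, except that the first SH air array has no number there. Arrays of 1 number did not deviate together (median r -0.006 over 24 pairs, and 1 of 16 arrays closest to its own number). The main fit did not use the numbers as pairs, and a lack of shared deviation cannot show whether rats were paired by design. The fit with the replicate block called 2 of 10 averaged over exposures, 1 in SO2 and 0 in the other comparisons, as without it. Detection calls were not used here, so which probe sets signal over background limits is not given.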
